A study of Caenorhabditis elegans with 24 samples.

Results

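Small nucleolar RNA (snoRNA) genes are the 346 rows, of 46374 in each deposited gene table, that the WBcel235 annotation from Ensembl gives the biotype snoRNA. The rule used the annotation alone and no measured value. Association of BAF-1 with these genes was measured in Caenorhabditis elegans by DamID, in which Dam, a bacterial DNA adenine methyltransferase, is fused to a protein and marks GATC sites near the places where that protein sits. GFP::Dam, which has no binding preference of its own, was the control, and the value for a gene is log2(fusion/GFP::Dam) in each replicate. The study uses GFP::Dam to normalize for chromatin accessibility. The ratio does not separate a low fusion signal from a high GFP::Dam signal. There were 24 libraries in 8 groups of 3, which give 12 ratio columns in 4 fusion groups. Wild-type animals gave Dam::BAF-1 against GFP::Dam for the hypodermis (hyp BAF-1) and for the intestine (int BAF-1). Animals whose own baf-1 gene carries the G12T mutation gave Dam::BAF-1(G12T) against GFP::Dam for the same tissues (hyp BAF-1(G12T) and int BAF-1(G12T)). The fusion protein and the genotype of the animal therefore change together and cannot be told apart. All strains carried the Dam construct as a single copy on chromosome II behind a heat shock promoter, and a FLP recombinase driven by dpy-7p (hypodermis) or nhx-2p (intestine) opened it in the labelled tissue. Each library came from 4000 pooled L4 animals grown for 48 h at 20 °C, and used 400 ng of DNA and 22 cycles of PCR. The tables hold ratios and no expression, so the labelled tissues could not be checked against marker genes. The study describes the replicates of a group as independent biological ones.

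BAF-1 is a small protein of the nuclear envelope that binds DNA, lamin and LEM-domain proteins, and chromosome arms lie closer to the envelope than chromosome centers in C. elegans. snoRNAs guide the chemical modification of other RNAs, above all ribosomal RNA. Box C/D snoRNAs guide 2′-O-methylation with fibrillarin (FIB-1), and box H/ACA snoRNAs guide pseudouridylation with dyskerin (DKC-1). Many snoRNAs are cut out of the introns of protein-coding genes, often of genes for ribosomal proteins and nucleolar proteins.

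The members were short, with a length from 54 to 344 bases and a median of 130. The label was only partly backed by their sequence. A C box (TGATGA with at most 1 mismatch in the first 20 bases) together with a D box (CTGA in the last 20 bases) was found in 43 of 346 members (12.4%), against 0.568% of genome tiles of 130 bases read on both strands. A further 87 (25.1%) ended with ACA within the last 8 bases, against 9.63% of tiles. The other 216 had neither pattern. Only 2 members, smy-2 and smy-3, had a gene name rather than a sequence name. Of the 346, 150 lay in an intron of a protein-coding gene on the same strand, 28 in an intron on the opposite strand, 44 overlapped a coding gene's exon and 124 lay outside coding genes.

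The sequences below are those of members at both ends of the range of ratios, read from the RefSeq genome of WBcel235 (ce11) on the strand of the gene. Capitals mark the C box and the D box, or the ACA near the 3′ end, and a sequence without capitals has neither pattern. The first set holds the 3 members bound in all 4 groups. W05B2.9 lies at chrIII:10976663-10976746 in an intron of dhc-4 on the opposite strand, K02F6.11 at chrII:2556628-2556798 outside coding genes, and Y59E1B.14 at chrX:1891509-1891629 outside coding genes.
W05B2.9: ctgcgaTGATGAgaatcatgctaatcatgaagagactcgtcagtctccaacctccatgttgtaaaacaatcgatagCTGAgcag
K02F6.11: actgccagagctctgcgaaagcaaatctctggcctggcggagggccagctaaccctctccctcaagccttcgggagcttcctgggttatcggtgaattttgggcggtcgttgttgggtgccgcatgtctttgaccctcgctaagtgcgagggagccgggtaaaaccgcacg
Y59E1B.14: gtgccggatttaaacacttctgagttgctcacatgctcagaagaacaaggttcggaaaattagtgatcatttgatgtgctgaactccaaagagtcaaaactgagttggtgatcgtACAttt

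The second set holds 4 members at the low end, 2 with each pattern. Y75B12B.12 lies at chrV:15190976-15191093 outside coding genes, H06I04.8 at chrIII:3068806-3068883 in ubl-1, C16A3.11 at chrIII:6374415-6374548 in rps-13 and D2096.14 at chrIV:8378820-8378941 in nap-1, the last 3 in introns on the same strand.
Y75B12B.12: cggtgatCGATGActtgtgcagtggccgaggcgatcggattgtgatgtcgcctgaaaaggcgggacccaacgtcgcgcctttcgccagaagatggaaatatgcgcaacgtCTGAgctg
H06I04.8: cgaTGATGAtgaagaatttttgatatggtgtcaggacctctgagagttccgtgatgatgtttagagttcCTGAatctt
C16A3.11: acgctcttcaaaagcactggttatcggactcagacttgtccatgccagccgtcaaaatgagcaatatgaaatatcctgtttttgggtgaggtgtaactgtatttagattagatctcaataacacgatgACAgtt
D2096.14: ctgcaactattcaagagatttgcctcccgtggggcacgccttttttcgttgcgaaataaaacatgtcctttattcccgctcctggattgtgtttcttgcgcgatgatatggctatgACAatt

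The third set holds 3 members whose ratio differed between the tissues with both proteins. C18D1.21 lies at chrII:10065831-10065983 in an intron of die-1 on the opposite strand, T26H10.10 at chrV:11433182-11433417 outside coding genes, and F55F1.11 at chrX:2772193-2772304 in an intron of cgef-1.
C18D1.21: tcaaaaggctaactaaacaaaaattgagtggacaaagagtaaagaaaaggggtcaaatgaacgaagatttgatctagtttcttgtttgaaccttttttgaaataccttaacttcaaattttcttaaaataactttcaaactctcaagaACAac
T26H10.10: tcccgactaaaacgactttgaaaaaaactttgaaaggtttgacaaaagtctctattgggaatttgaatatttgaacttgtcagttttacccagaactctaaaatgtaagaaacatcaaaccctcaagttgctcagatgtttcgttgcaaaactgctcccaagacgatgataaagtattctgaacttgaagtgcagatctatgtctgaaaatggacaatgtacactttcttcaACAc
F55F1.11: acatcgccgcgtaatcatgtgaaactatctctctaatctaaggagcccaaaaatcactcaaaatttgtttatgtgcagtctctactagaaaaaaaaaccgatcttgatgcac

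The ratio of a member does not come from the transcribed bases alone. The authors counted reads over each gene extended by 500 bp at each end, and DamID reads start at GATC. The extended snoRNA windows had a median of 3 GATC sites in 1130 bp, against 9 sites in 3031 bp for protein-coding genes, and 26 members had no site. A gene counts as tested where the deposited table holds an adjusted p-value for it. None of these 26 was tested in any group. Among members with 1 site, 50.8% were tested in hyp BAF-1 and 72.9% in int BAF-1, and with 3 sites 90.6% and 96.2%. In all, 264 members were tested in hyp BAF-1, 281 in hyp BAF-1(G12T), 295 in int BAF-1 and 290 in int BAF-1(G12T), with 258 tested in all 4 groups, 302 in at least 1 and 44 in none. Some windows overlap, and the 346 members form 321 sets of overlapping windows, the largest with 4 members. The window of W05B2.9 holds a single GATC, 258 bases beyond the gene at chrIII:10976402-10976405, so its ratio rests on that site. It is shown in capitals with 40 bases on each side, on the plus strand.
Site in the W05B2.9 window: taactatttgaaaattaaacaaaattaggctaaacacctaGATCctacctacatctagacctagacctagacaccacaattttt

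In every group, snoRNA genes were rarely bound and often had a ratio below that of the typical gene. The median over all tested genes was subtracted from every ratio column, so 0 is the level of the typical tested gene. A gene was bound where its mean ratio over 3 replicates was above 0 by limma at FDR 0.05 (FDR, false discovery rate), and below 0 where the mean was negative at the same FDR. Bound members numbered 15 in hyp BAF-1 (5.68% of those tested), where the background over all tested genes was 20.5%. There were 15 in hyp BAF-1(G12T) (5.34%, background 24.6%), 16 in int BAF-1 (5.42%, background 25.9%) and 17 in int BAF-1(G12T) (5.86%, background 21.9%). Members below 0 numbered 138 in hyp BAF-1 (52.3%, background 24%), 159 in hyp BAF-1(G12T) (56.6%, background 26.3%), 150 in int BAF-1 (50.8%, background 22.4%) and 109 in int BAF-1(G12T) (37.6%, background 19.2%). The share bound was thus below the background in all 4 groups and the share below 0 was above it in all 4. The counts in the intestine changed when single replicates were left out. Without replicate 2 of int BAF-1 no member was bound (11 at an unadjusted p under 0.05) and none was below 0 (112 at an unadjusted p under 0.05), and without replicate 3 there were 6 and 50. Without replicate 1 of the same group the counts were 29 and 190, and in that replicate 42 of the 295 tested members sat at the most frequent value of the column, which features without reads take. Without replicate 1 of int BAF-1(G12T) 11 members were bound, without its replicate 3 there were 8 bound and 51 below 0, and without replicate 3 of hyp BAF-1 91 members were below 0. When the fit took in all genes of the table with no filter, hyp BAF-1(G12T) fell to 1 bound member and 8 below 0. Among genes never at the most frequent value of a column, 15, 14, 21 and 15 members were bound and 134, 163, 156 and 128 were below 0. Without replicate 2 of int BAF-1 the limma adjusted p was 0.0882 both for E01A2.11 at -4.88 and for WBGene00220185 at 5.16. The share of all genes called in these refits is not given here. A general loss of power thus cannot be told from one particular to the members.

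**Figure D1:**
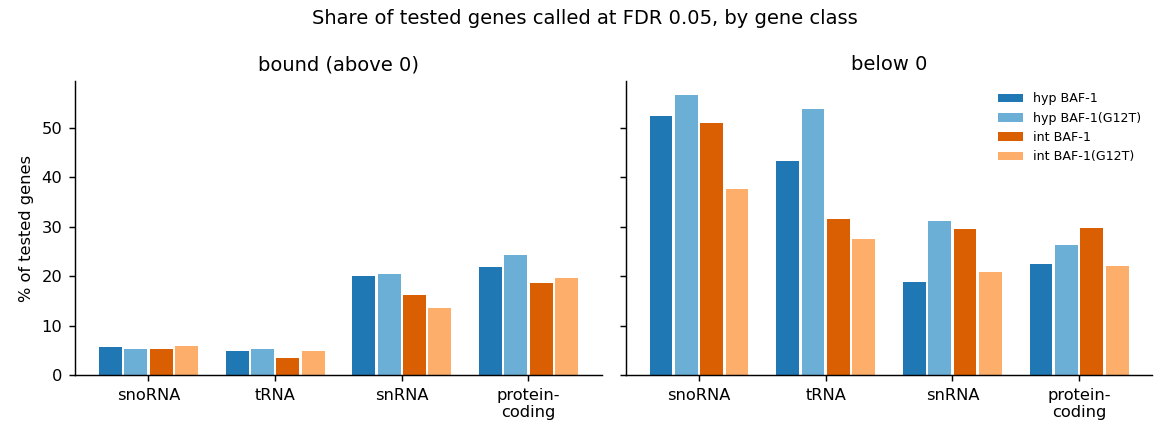
Share of tested genes (%) called bound (left) or below 0 (right) at an FDR of 0.05, for snoRNA, tRNA, snRNA and protein-coding genes, with 1 bar for each of the 4 fusion groups. The snoRNA bars for bound lie between 5.34% and 5.86%, and those for below 0 between 37.6% and 56.6%.

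The median ratio over the tested members, taken in each replicate, was -1.32, -1.57 and -1.64 in hyp BAF-1, and -1.75, -1.58 and -1.39 in hyp BAF-1(G12T). It was -0.78, -1.5 and -2.73 in int BAF-1, and -1.0, -1.33 and -2.02 in int BAF-1(G12T). All 12 columns were negative, and the replicates lay farther apart in the intestine (SD 0.99 and 0.52, n = 3) than in the hypodermis (SD 0.17 and 0.18, n = 3). The most frequent value, which features without reads take, differed between columns. Before centring it ran from -1.62 in replicate 3 of hyp BAF-1 to 2.46 in replicate 2 of int BAF-1. In replicate 1 of int BAF-1(G12T) it was -0.93 and 0.072 was then subtracted, so the median of -1.0 is that value. Between 0.339% and 14.2% of tested members sat at it in a column. Over the same columns, the median of protein-coding genes was 0.06 ± 0.05 in hyp BAF-1, -0.06 ± 0.05 in hyp BAF-1(G12T), -0.58 ± 0.51 in int BAF-1 and -0.28 ± 0.26 in int BAF-1(G12T) (SD, n = 3). Transfer RNA genes, which are also short, came close to snoRNA genes, with medians of -1.33 ± 0.30, -1.38 ± 0.04, -1.15 ± 0.79 and -0.92 ± 0.42 in the same order. Spliceosomal small nuclear RNA (snRNA) genes lay nearer to coding genes, at -0.05 ± 0.26, -0.27 ± 0.46, -0.40 ± 0.47 and -0.45 ± 0.28. Among the 258 members tested in all 4 groups, 113 were at or below 0 in all 12 columns and 7 were above 0 in all 12. The matching shares over all genes are not given here, so whether either count is unusual cannot be judged. Of these 258, 71 were below 0 by the test in all 4 groups (background 9.98%) and 187 in at least 1 (background 42.5%). Bound calls in all 4 groups were made for 3 (background 9.78%) and in at least 1 group for 26 (background 37.4%).

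The position of a member along its chromosome went with its ratio. Of the 313 members on the 5 autosomes, 144 lay in arms (46.0%) and 169 in centers, and 33 lay on chromosome X, which was not split. Protein-coding genes were more often in arms (57.5%). In arms, the median ratio of the members by replicate was -0.44, -0.43 and -0.53 in hyp BAF-1, -0.75, -0.81 and -0.65 in hyp BAF-1(G12T), -0.50, -1.09 and -1.85 in int BAF-1, and -0.85, -0.96 and -1.27 in int BAF-1(G12T). In centers it was -2.0, -2.28 and -2.37, then -2.48, -2.30 and -1.85, then -0.94, -2.30 and -3.36, then -1.04, -1.65 and -2.55, in the same order of groups. Arms were above centers in each of the 12 columns. The arm median of -0.75 in replicate 1 of hyp BAF-1(G12T) is the most frequent value of that column. It was -0.47 before 0.28 was subtracted. The arm minus center difference was 1.75 ± 0.17 in hyp BAF-1, 1.47 ± 0.26 in hyp BAF-1(G12T), 1.05 ± 0.55 in int BAF-1 and 0.72 ± 0.55 in int BAF-1(G12T) (SD, n = 3). For protein-coding genes it was 2.36 ± 0.14, 2.13 ± 0.19, 2.20 ± 0.95 and 2.18 ± 0.55. The snoRNA contrast was smaller than the coding contrast by 0.61 ± 0.28 and 0.66 ± 0.13 in hypodermal columns and by 1.15 ± 0.43 and 1.46 ± 0.27 in intestinal ones, taken within replicates (SD, n = 3). These differences are given with their spread and no test. Transfer RNA genes also stood low in arms, with medians of -0.26, -0.51, -0.57 and -0.30 in the 4 groups. Coding genes in arms were at 1.18, 1.03, 0.54 and 0.81, and snRNA genes at 0.63, 0.43, 0.12 and 0.30. In centers transfer RNA genes were at -1.62, -1.74, -1.54 and -1.32, beside -1.18, -1.10, -1.66 and -1.37 for coding genes.

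**Figure D2:**
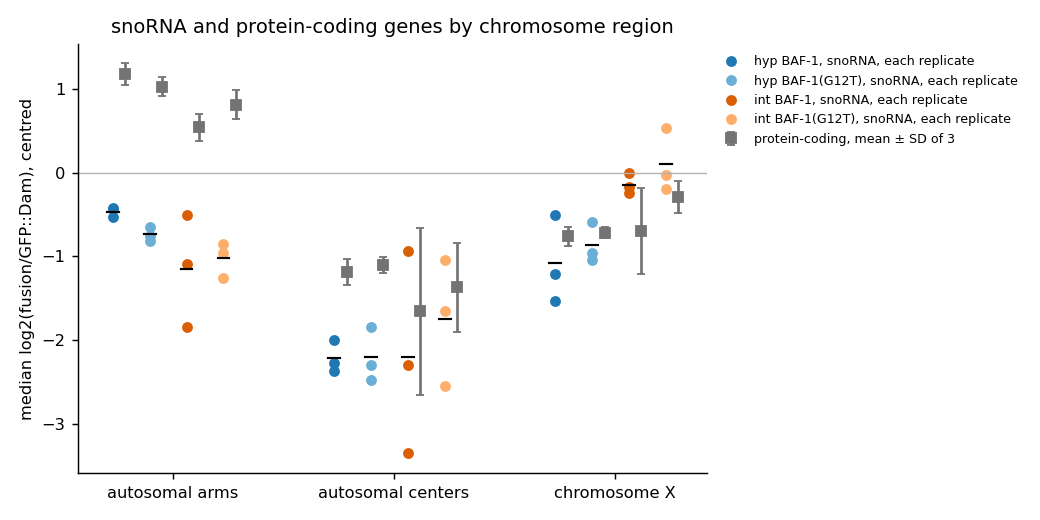
Median log2(fusion/GFP::Dam) of tested snoRNA genes in each replicate (colored points, black line at their mean) and of protein-coding genes (gray squares, mean ± SD of 3 replicates) in autosomal arms, autosomal centers and chromosome X. In arms the snoRNA medians run from -1.85 to -0.43 while the coding means lie above 0.

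The arms were where snoRNA genes parted most from coding genes, and by the medians above transfer RNA genes did so too. Against the median of protein-coding genes within 20 kb whose windows do not overlap the member's, arm members were lower by 1.02, 1.04 and 0.97 in the replicates of hyp BAF-1, and by 1.44, 1.17 and 0.70 in those of hyp BAF-1(G12T). They were lower by 0.75, 0.56 and 0.93 in int BAF-1 and by 1.06, 0.94 and 1.08 in int BAF-1(G12T), so the sign was the same in 12 of 12 columns. Of the arm members with a value, 29 of 104, 33 of 114, 33 of 118 and 27 of 116 were above their coding neighbors. In centers the median difference was -0.45 ± 0.31, -0.79 ± 0.16, -0.28 ± 0.15 and -0.10 ± 0.06 (SD, n = 3). Center members were thus close to their neighbors in the intestine, where 64 of 153 and 65 of 151 were above them. Over all members the difference was -0.66 ± 0.17, -0.88 ± 0.24, -0.43 ± 0.20 and -0.45 ± 0.11. It depended on which coding genes were taken. Within 50 kb it was -0.92, -1.01, -0.64 and -0.58. Against coding genes whose windows overlap the member, which share reads with it, it was -0.022, -0.077, 0.054 and -0.097. For members outside coding genes it was -0.82 and -0.78 with hypodermal ratios, then -0.086 and -0.23 with intestinal ones.

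**Figure D3:**
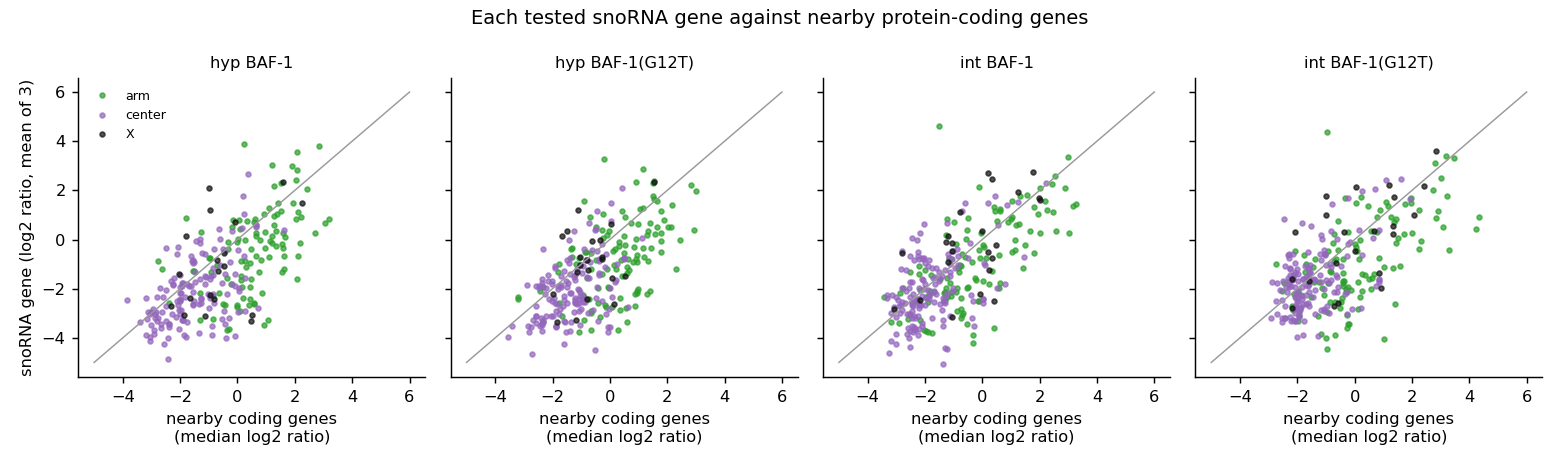
Mean log2(fusion/GFP::Dam) of each tested snoRNA gene (vertical axis, mean of 3 replicates) against the median ratio of nearby protein-coding genes (horizontal axis), with 1 panel for each group, points colored by arm, center or X and a gray line at equality. Most arm points lie under the line, and 29 of 104 in hyp BAF-1 lie above it.

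Single arms differed in this respect. On the right arm of chromosome III, 12 of 12 members were tested, and their median was 1.30 ± 0.44 in hyp BAF-1 and 0.78 ± 0.56 in hyp BAF-1(G12T), with 5 and 4 of them bound, beside 40.7% and 36.8% of coding genes on that arm. The difference from their coding neighbors in the hypodermis was 0.16 ± 0.38 and 0.11 ± 0.78, within the spread between replicates. In the intestine the same 12 members were at -0.39 ± 1.06 and -1.01 ± 0.21, and 1 was bound with either protein, beside 21.8% and 25.2% of coding genes there. Against their neighbors they were at 0.13 ± 0.54 in int BAF-1, and lower in each replicate of int BAF-1(G12T) (-0.76, -0.93 and -0.60). The left arm of chromosome III was the opposite case, with medians of -1.59 ± 0.29, -2.06 ± 0.54, -1.63 ± 0.69 and -2.25 ± 0.85 in the 4 groups, and differences from coding neighbors of -2.15 ± 0.23, -2.55 ± 0.70, -1.52 ± 0.25 and -2.75 ± 0.74. The right arm of chromosome I also lay low against its neighbors, at -2.0 ± 0.37, -1.67 ± 0.07, -1.17 ± 0.33 and -1.87 ± 0.37. There 6 to 10 members were tested and none was bound in any group, beside 48.2%, 49.9%, 39.7% and 44.1% of coding genes on that arm. On the left arm of chromosome IV, the arm with the most members (28), the difference was smaller in the hypodermis, at -0.12 ± 0.19 and -0.17 ± 0.21, and was -0.45 ± 0.02 and -0.55 ± 0.05 in the intestine.

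The centers of all 5 autosomes were low in the hypodermis. Their medians in hyp BAF-1 were -2.18 ± 0.22 on chromosome I, -2.38 ± 0.13 on II, -1.51 ± 0.52 on III, -2.44 ± 0.18 on IV and -2.40 ± 0.12 on V. Chromosome III was the highest and had the widest spread between replicates. Below 0 were 23 of 32 members on I, 31 of 38 on II, 15 of 25 on III, 14 of 18 on IV and 20 of 27 on V, beside 25.8% to 63.0% of coding genes in the same centers. The only bound ones were 2 of 27 on chromosome V, beside 1.36% of coding genes in that center and 0.629% to 4.33% over the 5 centers. Members of chromosome X stood higher in the intestine than those of the autosomes. Their replicate medians were 0.00, -0.25 and -0.18 in int BAF-1 and -0.19, 0.53 and -0.02 in int BAF-1(G12T), against -0.50, -1.53 and -1.22 in hyp BAF-1 and -1.05, -0.96 and -0.58 in hyp BAF-1(G12T). The values of the 2 tissues did not overlap for either protein. The 0.00 in replicate 1 of int BAF-1 is the most frequent value of that column, which features without reads take. With BAF-1(G12T), the medians of coding genes on X did not overlap either (-0.70, -0.79 and -0.66 in the hypodermis, -0.10, -0.30 and -0.48 in the intestine). With BAF-1 those of coding genes did overlap (-0.69, -0.89 and -0.71, then -0.11, -0.93 and -1.07). Of the 24 and 23 members of chromosome X tested in the intestine, 5 were bound with each protein (10.8% and 13.6% of coding genes on X), and 2 of 20 and 1 of 22 in the hypodermis (6.93% and 7.71%). Against coding neighbors the members on X differed by -0.29 ± 0.80, -0.33 ± 0.12, 0.22 ± 0.53 and -0.054 ± 0.57 in the 4 groups (SD, n = 3), and the sign was the same in all 3 replicates of hyp BAF-1(G12T) alone.

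W05B2.9, a box C/D gene on the right arm of chromosome III, had the highest mean over the 4 groups. Its ratios were 4.95, 2.69 and 4.06 in hyp BAF-1, 3.79, 2.26 and 3.81 in hyp BAF-1(G12T), 1.91, 2.08 and 2.28 in int BAF-1, and 3.04, 3.70 and 3.44 in int BAF-1(G12T). All 12 values were above 0, and the gene was bound in every group with limma adjusted p-values of 0.0013, 0.000955, 0.0158 and 0.00471. It stood 3.66 and 3.48 above coding genes within 20 kb in the hypodermis, but only 0.09 and 0.21 above them in the intestine, where those neighbors were themselves at 2.0 and 3.18. K02F6.11, on the left arm of chromosome II, had 5.14, 3.10 and 3.17 in hyp BAF-1, 2.75, 1.15 and 2.81 in hyp BAF-1(G12T), 2.74, 2.54 and 2.43 in int BAF-1, and 3.09, 1.47 and 2.95 in int BAF-1(G12T). Its coding neighbors were also high, at 2.83, 2.82, 2.55 and 3.02. The call of W05B2.9 was lost in int BAF-1 without replicate 2 (limma adjusted p = 0.151) or replicate 3 (0.0974), and that of K02F6.11 in int BAF-1 without replicate 2 (0.103) and in int BAF-1(G12T) without replicate 3 (0.0731). Without the filter on tested genes, both calls were lost in hyp BAF-1(G12T) (0.104 for W05B2.9 and 0.153 for K02F6.11), and that of W05B2.9 also in int BAF-1 (0.066). Y59E1B.14 on chromosome X had 3.21, 4.02 and -0.17 in hyp BAF-1, 3.77, 2.09 and 1.17 in hyp BAF-1(G12T), 2.0, 1.22 and 2.53 in int BAF-1, and 0.87, 1.89 and 2.47 in int BAF-1(G12T). Replicate 3 of hyp BAF-1 was its single value under 0, and its calls were lost in hyp BAF-1 without replicate 1 (limma adjusted p = 0.0686) or replicate 2 (0.168), in int BAF-1 without replicate 2 (0.13) or replicate 3 (0.176), and in int BAF-1(G12T) without replicate 2 (0.0974) or replicate 3 (0.281).

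Bound in centers were 2 of 140 members tested there in hyp BAF-1, 2 of 145 in hyp BAF-1(G12T), 2 of 153 in int BAF-1 and 4 of 151 in int BAF-1(G12T), beside 2.56%, 3.47%, 3.23% and 3.45% of coding genes in centers. F25G6.21, in an intron of slc-17.8 in the center of chromosome V, had 3.13, 3.17 and 1.70 in hyp BAF-1, 2.83, 1.84 and 1.65 in hyp BAF-1(G12T), 1.23, 1.10 and 2.15 in int BAF-1, and 2.18, 0.74 and 3.03 in int BAF-1(G12T). It was above 0 in all 12 columns and bound in 3 groups, and missed the threshold in int BAF-1 (adjusted p = 0.0582). T06E4.20, also in the center of chromosome V, had means of 1.76 ± 0.51, 1.47 ± 0.82, 0.58 ± 0.58 and 2.43 ± 0.96 (SD, n = 3) and was bound in all but int BAF-1 (adjusted p = 0.43). On chromosome X, F54G2.4 in an intron of F54G2.1 had means of 2.11 ± 1.59, 1.2 ± 1.03, 2.48 ± 0.34 and 2.20 ± 0.47, bound in all but hyp BAF-1(G12T) (adjusted p = 0.071). Some of these calls were lost when single replicates were left out. That of F25G6.21 was lost in int BAF-1(G12T) without replicate 1 (limma adjusted p = 0.0932) or 3 (0.253). That of T06E4.20 was lost in hyp BAF-1 without replicate 2 (0.106) or 3 (0.0554), in hyp BAF-1(G12T) without replicate 1 (0.0922), and in int BAF-1(G12T) without replicate 1 (0.0609) or 3 (0.0679). That of F54G2.4 was lost in hyp BAF-1 without replicate 1 (0.0745) or 3 (0.114), in int BAF-1 without replicate 2 (0.0987) or 3 (0.0571), and in int BAF-1(G12T) without replicate 1 (0.0515) or 3 (0.103). F54G2.4 and F25G6.21 were among the 4 members that stood highest above their coding neighbors, by 2.14 and 1.75 on average over the groups. The highest ratios in the intestine belonged to the gene WBGene00220185, outside coding genes on the right arm of chromosome IV, with 5.09, 3.5 and 5.23 in int BAF-1 and 7.0, 2.27 and 3.81 in int BAF-1(G12T). In hyp BAF-1(G12T) it had -0.75, 2.59 and 2.81, and it was not tested in hyp BAF-1. At the precision printed, that -0.75 equals the most frequent value of its column, which features without reads take.

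**Figure D4:**
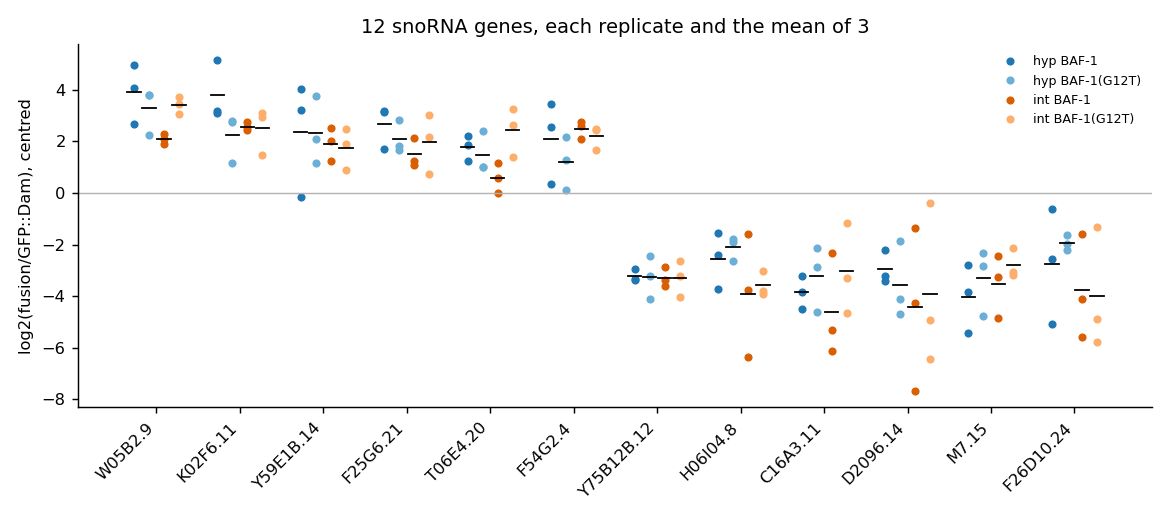
log2(fusion/GFP::Dam) of 12 named snoRNA genes in each of 3 replicates (points) with the mean (black line), for the 4 fusion groups by color. The 6 genes on the left are mostly above 0, with -0.17 in 1 replicate of Y59E1B.14 and 0 in 1 of T06E4.20, and the 6 on the right are below 0 in every replicate.

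The lowest members included several in introns of genes for ribosomal proteins. C16A3.11, with an ACA end in rps-13 (small ribosomal subunit protein), had -3.86, -3.21 and -4.49 in hyp BAF-1, -4.61, -2.88 and -2.12 in hyp BAF-1(G12T), -2.34, -5.32 and -6.13 in int BAF-1, and -1.16, -3.31 and -4.66 in int BAF-1(G12T). D2096.14, in nap-1 (nucleosome assembly protein), had -3.23, -2.22 and -3.40, then -4.68, -4.13 and -1.84, then -1.37, -4.27 and -7.67, then -0.41, -4.91 and -6.45 in the same order. H06I04.8, a box C/D gene in ubl-1 (a ubiquitin fused to a ribosomal protein) on the left arm of chromosome III, had -1.56, -3.74 and -2.41, then -2.65, -1.80 and -1.89, then -1.59, -3.77 and -6.34, then -3.02, -3.90 and -3.81. All 3 genes were below 0 in every column and by the test in all 4 groups. Each lost this call in int BAF-1 without replicate 2 (limma adjusted p = 0.0882), H06I04.8 also in hyp BAF-1 without replicate 2 (0.0595), and C16A3.11 and D2096.14 in int BAF-1(G12T) without replicate 3 (0.0807 and 0.0527). H06I04.8 lay 3.27 below its coding neighbors on average over the groups, although those neighbors were near the typical gene, at 0.57, 0.95, -0.32 and -0.26. Y75B12B.12, a box C/D gene outside coding genes on the right arm of chromosome V, was at nearly the same mean in all groups, -3.22 ± 0.24, -3.26 ± 0.85, -3.29 ± 0.37 and -3.30 ± 0.69 (SD, n = 3). Among arm members, F26D10.24 in hsp-1 (heat shock protein), F28D1.13 in rps-23 and Y43B11AR.7 in rps-4 were also among the 5 lowest, with averages over the 4 groups of -3.12, -3.31 and -3.07. M7.15 and B0379.13, outside coding genes in the centers of chromosomes IV and I, averaged -3.41 and -3.43, and M7.15 lay 3.18 below its coding neighbors.

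Host genes and the members inside them had nearly the same ratio. For members in introns on the same strand, the median of member minus host was 0.02 ± 0.07, -0.01 ± 0.01, -0.01 ± 0.13 and -0.10 ± 0.02 in the 4 groups (SD, n = 3), over 127 to 138 members in 107 to 118 hosts. The correlation of members with hosts across these genes was 0.90, 0.90, 0.93 and 0.92. The window of a member lies largely in that of its host and both count the same reads, so the pairs are not independent. Of the 150 intronic members, 19 lay in 13 genes for ribosomal proteins, picked out after their low values had been seen. None of those tested was above 0 in any group, beside 49.6% to 51.0% of all tested genes. Of the 9 tested in arms, 7, 9, 9 and 8 were below 0 by the test. In introns of other genes in arms, 10 of 40, 16 of 44, 19 of 45 and 18 of 45 members were. The background over all tested genes was 24%, 26.3%, 22.4% and 19.2%. As these hosts were picked after their values were seen, the counts are a description only. The medians in arms were -1.93, -2.65, -3.35 and -3.05 for ribosomal protein hosts, and -0.11, -0.52, -1.32 and -1.27 for other hosts. In centers the corresponding medians were -3.13, -3.20, -3.53 and -3.10 for ribosomal protein hosts and -2.17, -2.33, -2.44 and -1.88 for other hosts.

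Members with an ACA end were lower than the rest in arms. Their medians there were -1.80 ± 0.36, -2.10 ± 0.41, -2.33 ± 0.98 and -2.37 ± 0.95 in the 4 groups, against 0.18 ± 0.57, -0.30 ± 0.23, -1.34 ± 0.80 and -1.25 ± 0.67 for members with a C and a D box, and -0.31 ± 0.12, -0.65 ± 0.06, -0.64 ± 0.56 and -0.62 ± 0.17 for those with neither (SD, n = 3). In the hypodermis the replicate values of the ACA class in arms did not reach those of the others. In centers of hyp BAF-1 the medians of the 3 classes lay between -2.49 and -2.13. The ACA class was at -2.69 in centers of int BAF-1, against -1.96 with both boxes and -1.94 with neither, and at -2.09 against -1.63 and -1.51 in int BAF-1(G12T). Of the 87 members with an ACA end, 57 lay in introns on the same strand, so the class and the host location were not independent.

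The genes for the proteins of snoRNA particles had low median ratios in all groups. The list holds fib-1 (fibrillarin, the methyltransferase of box C/D particles), nol-56, nol-58 and snu-13 (core proteins of those particles), dkc-1 (dyskerin, the pseudouridine synthase), Y48A6B.3, garr-1 and nola-3 (core proteins of box H/ACA particles) and dao-5 (a nucleolar protein). None of the 9 was bound in any group, and 4, 7, 9 and 6 were below 0 in hyp BAF-1, hyp BAF-1(G12T), int BAF-1 and int BAF-1(G12T). Over all genes, 20.5% to 25.9% were bound in a group and 19.2% to 26.3% were below 0. snu-13, in the center of chromosome II, had the lowest mean in hyp BAF-1 (-3.06 ± 0.49), in hyp BAF-1(G12T) (-2.91 ± 0.64) and in int BAF-1 (-4.02 ± 0.84). fib-1 lies on the right arm of chromosome V and was nevertheless at -2.51 ± 1.65, -2.55 ± 0.82 and -3.98 ± 1.56 in these groups, below 0 by the test, and at -2.10 ± 2.19 in int BAF-1(G12T) (adjusted p = 0.0593). Y48A6B.3, on the right arm of chromosome III, was the one listed gene with a positive mean in the hypodermis, 0.52 ± 0.46 and 0.15 ± 1.14, and was at -3.75 ± 2.07 and -2.41 ± 1.47 in the intestine. The list's median was -1.46, -1.77, -3.27 and -2.41, beside medians over coding genes of 0.06, -0.04, -0.63 and -0.42 for the mean of 3 replicates. nol-56 itself holds 4 members in its introns (K07C5.18, K07C5.10, K07C5.12 and K07C5.11), with means from -3.89 to -1.94 in hyp BAF-1. rpl-6 (large ribosomal subunit protein) holds 3 (R151.11, R151.12 and R151.13), with means from -3.23 to -3.21 in hyp BAF-1. The members inside each of these hosts have overlapping windows and share reads.

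No member was called different between BAF-1 and BAF-1(G12T). Of the 263 members compared in the hypodermis and the 285 in the intestine, 0 passed an FDR of 0.05 by limma (background 0% over all genes). At an unadjusted p under 0.05 there were 6 higher (background 1.54%) and 2 lower (background 0.393%) in the hypodermis, and 3 higher (background 0.546%) and 6 lower (background 2.47%) in the intestine. With the replicate number as a block, which the correlations of the replicates call for in this comparison, the counts were again 0, with 19 (7.22%) and 21 (7.37%) at an unadjusted p under 0.05, beside 5.03% and 6.24% of all genes in the same fits. The median difference over members was -0.04 for hypodermal and 0.05 for intestinal ratios, with quartiles from -0.51 to 0.40 and from -0.51 to 0.68. For comparisons between groups the columns were centred again over the genes tested in both, so a fitted difference need not equal that of the means in each group. The median standard error of a single member's difference was 0.73 and 0.90 on the log2 scale. Even the largest differences of single members, 2.33 in the hypodermis and 3.25 in the intestine, were not called. The lack of calls therefore does not show that differences in single genes were small. The largest positive difference by p-value in the hypodermis was that of F32E10.10, 2.28 ± 0.64 (SE), which went from -4.39, -3.37 and -4.17 with BAF-1 to -2.34, -1.83 and -1.24 with BAF-1(G12T). Its groups did not overlap and its adjusted p was 1.00. In the intestine, C41C4.16 went from -4.81, -3.97 and -3.57 to 0.07, 0.77 and -2.79, a difference of 3.25 ± 0.99 (SE, adjusted p = 1.00). The means of the members correlated between the proteins at 0.91 for the hypodermis and 0.85 for the intestine (n = 258 members, a description across genes measured with the same libraries).

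Between the tissues, 17 members differed with at least 1 protein. With BAF-1, 8 of 260 members were higher in the intestine (background 5.56%) and 4 were lower (background 2.62%), or 4.62% of members called in all. With BAF-1(G12T), 9 of 275 were higher (background 5.03%) and 1 was lower (background 2.29%), or 3.64% called. Each of these shares was under the background of all genes. Of the 4 lower with BAF-1, 3 (K12D12.6, K12D12.7 and K12D12.8, all in introns of top-2, a DNA topoisomerase gene) have overlapping windows. Called with both proteins were C18D1.21, F35H10.12, T26H10.10, F55F1.11 and F52G3.6, each higher in the intestine. The share of all genes called with both proteins, or with at least 1, is not given here. At an unadjusted p under 0.05 there were 27 higher (background 16.2%) and 22 lower (background 10.4%) with BAF-1, and 36 higher (background 14.5%) and 15 lower (background 10.4%) with BAF-1(G12T). The test of whether the tissue difference depended on the protein called 0 of 258 members (background 0%), with 8 at an unadjusted p under 0.05 by limma (background 3.67%).

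F55F1.11, in an intron of the guanine nucleotide exchange factor gene cgef-1, differed most. Its ratios were -4.64, -3.88 and -1.36 in hyp BAF-1 and 1.0, 1.45 and 2.59 in int BAF-1, and -3.26, -2.73 and -1.83 in hyp BAF-1(G12T) and 3.39, 2.74 and 4.69 in int BAF-1(G12T). All intestinal values were above all hypodermal ones, with differences of 5.34 ± 0.92 (SE, adjusted p = 0.00691) and 6.25 ± 0.78 (SE, adjusted p = 0.00672). T26H10.10 had -2.59, -2.32 and -3.49 in hyp BAF-1 against 1.0, 1.51 and 2.11 in int BAF-1, and -2.75, -0.37 and -1.46 against 2.59, 3.23 and 1.56 with BAF-1(G12T). C18D1.21 had -0.83, -2.92 and -1.41 against 2.89, 2.17 and 1.90, and -2.19, -2.52 and -2.56 against 2.46, 0.80 and 1.71. Neither gene's tissues overlapped with either protein. The windows of F55F1.11 and T26H10.10 hold 2 GATC sites each and that of C18D1.21 holds 3, and the reads behind these values are unknown. In replicate 1 of int BAF-1, where features without reads are at 0, F55F1.11 and T26H10.10 were both at 1.0. With the authors' pseudocount of 1, such a value can come from very few reads. In the other direction, W03B1.17 on the left arm of chromosome IV had 3.48, 2.12 and 3.32 in hyp BAF-1 and 0.08, -1.19 and -1.06 in int BAF-1, a difference of -3.34 ± 0.76 (SE, adjusted p = 0.0188). With BAF-1(G12T), T21B4.20 was the only member lower in the intestine, with 0.25, 0.42 and 0.85 against -2.32, -3.47 and -2.02, a difference of -3.07 ± 0.72 (SE, adjusted p = 0.0253).

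**Figure D5:**
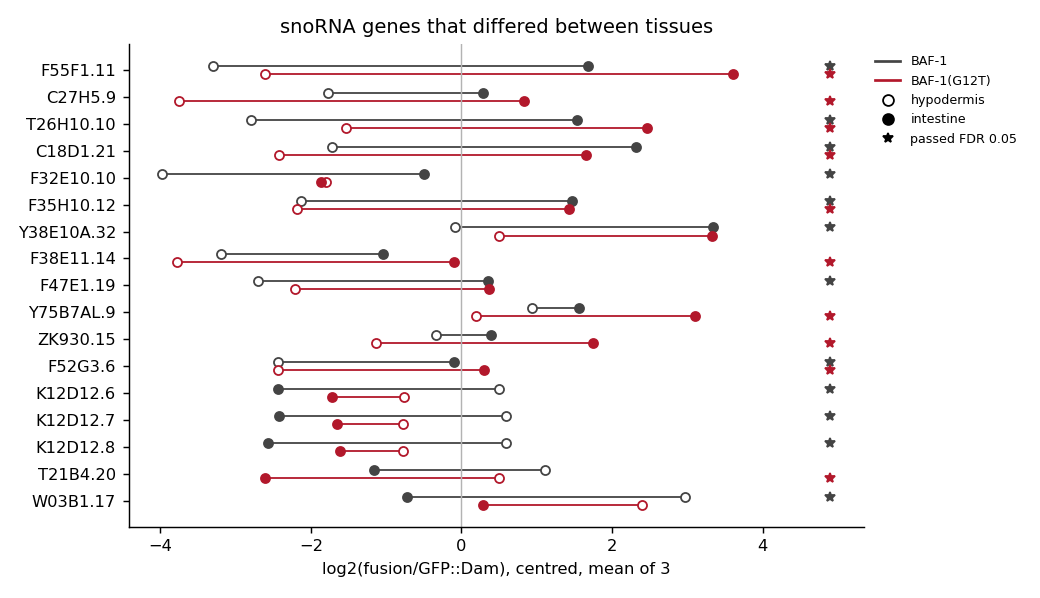
Mean log2(fusion/GFP::Dam) of the 17 snoRNA genes called different between tissues with at least 1 protein, in the hypodermis (open points) and the intestine (filled points), for BAF-1 (gray) and BAF-1(G12T) (red), with a star where the difference passed an FDR of 0.05. F55F1.11 at the top goes from -3.29 to 1.68 with BAF-1 and from -2.60 to 3.61 with BAF-1(G12T).

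For some of these genes the surroundings differed between tissues in the same direction. The coding neighbors of C18D1.21 were at -1.49 in hyp BAF-1 and 2.21 in int BAF-1, beside means of -1.72 and 2.32 for the member itself. Those of W03B1.17 were at 1.90 and -0.59, beside 2.97 and -0.72. Those of F55F1.11 were at 0.46 and 1.96, beside -3.29 and 1.68, so the member stood far below its neighbors in the hypodermis and near them in the intestine. C27H5.9, in an intron of pdl-1 on the opposite strand, went the other way from its surroundings with BAF-1(G12T), with neighbors at -1.52 and -2.48 beside -3.76 and 0.84. The number of these calls changed when single replicates were left out. Without replicate 3 of int BAF-1 no call with BAF-1 was made (42 at an unadjusted p under 0.05), without its replicate 2 there were 3, and without replicate 2 of hyp BAF-1 there were 4. Without replicate 1 of hyp BAF-1(G12T) no call with BAF-1(G12T) was made (39 at an unadjusted p under 0.05), without its replicate 2 there were 3, and without its replicate 3 there were 5. The direction of the BAF-1 calls also depended on the centring. With the deposited centring, which lowered the tissue difference of the median gene by 0.84 with BAF-1, 5 members were higher and 20 lower in the intestine, against 8 and 4 after centring on tested genes.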

How the data were processed

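The members and gene lists were chosen with earlier results of these data known. The authors kept reads with the DamID adapter at GATC sites of ce11, counted them over genes extended by 500 bp, added a pseudocount of 1 and deposited, for each replicate, the log2 ratio of relative reads of the fusion to GFP::Dam minus the mean over all features. The deposited adjusted p-value, from DESeq2 run by the authors, served only to show which genes had been tested. Ratio columns were then centred on the median over tested genes. The ratios hold no read counts, so the depth behind a gene's value is unknown and no counting interval is given. Reads per library, which the study lists, were not used here.

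Bound and below-0 calls came from a moderated one-sample fit in limma 3.58.1 (R 4.3.3, robust empirical Bayes) over all tested genes, and differences from 3 against 3 columns centred over the genes tested in both groups, with Benjamini-Hochberg adjustment and two-sided p-values. The script was tested on simulated data. Same-numbered replicates deviated together between the proteins within a tissue (correlations of 0.45, 0.32 and 0.28 for the hypodermis, then 0.30, 0.24 and 0.43 for the intestine), so the numbers pair these samples, whereas between tissues they did not (-0.10 to 0.08). Arms and centers followed the borders in the study's methods. Lists of genes to name were, by rule, the highest and lowest in each group, those bound in all groups or in centers, the lowest in arms, those with the smallest p-values for each difference, those farthest from coding neighbors, the snoRNA protein list and hosts of 3 or more members. The text describes only part of these lists, and not always the first of each. Left out were F22D6.16, T15H9.8 and K10D2.10, the lowest in hyp BAF-1, and F53G12.12, the farthest below its coding neighbors. Other genes named were chosen after their values were seen. In the list, Y66H1A.4 was read as garr-1. Alternatives were no filter, other centring, genes never at the most frequent value, limma without the robust option, leaving out replicates, 1 gene per overlapping set, other neighbor definitions and means. The 2 kb bins and members outside coding genes only were alternatives chosen after seeing the data.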

Additional observations from a re-analysis of the deposited data

Results flagged for a closer look

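The tissue difference of 17 snoRNA genes, tested by limma on 3 against 3 columns, was flagged because fusion against GFP::Dam gave different results in the hypodermis and the intestine. With BAF-1, 8 of 260 members were higher in the intestine (background 5.56%) and 4 lower (background 2.62%). With BAF-1(G12T), 9 of 275 were higher (background 5.03%) and 1 lower (background 2.29%). Each share was under the background of all genes. Leaving out 1 replicate gave 0 to 18 and 0 to 13 calls. With BAF-1, the log2 difference of intestine minus hypodermis was 5.34 for F55F1.11, 4.70 for T26H10.10, 4.40 for C18D1.21, 3.96 for F35H10.12, 3.84 for F32E10.10, 3.80 for Y38E10A.32, 3.42 for F47E1.19 and 2.70 for F52G3.6. It was -3.34 for W03B1.17, -2.81 for K12D12.8, -2.65 for K12D12.7 and -2.57 for K12D12.6. With BAF-1(G12T), it was 6.25 for F55F1.11, 4.63 for C27H5.9, 4.11 for C18D1.21, 4.02 for T26H10.10, 3.72 for F38E11.14, 3.66 for F35H10.12, 2.94 for Y75B7AL.9, 2.92 for ZK930.15, 2.76 for F52G3.6 and -3.07 for T21B4.20. The windows of Y75B7AL.9, ZK930.15 and T21B4.20 hold 1 GATC site each, and those of F55F1.11 and T26H10.10 hold 2 each. F32E10.10 had 2.0, -0.91 and -2.60 in int BAF-1, so its call rests on replicates that lie far apart, and its tissue difference with BAF-1(G12T) did not pass. That a call passed with one protein and not with the other is no sign of a difference between them, since the test of that difference called 0 members.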

How the results depend on the processing

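The counts, medians and differences reported here were each recomputed under the alternatives that applied, and 172 values stayed within the limits set for them while 36 moved. Leaving out 1 replicate gave 11 to 14 bound members in hyp BAF-1, 12 to 14 in hyp BAF-1(G12T), 0 to 29 in int BAF-1 and 8 to 16 in int BAF-1(G12T), and 91 to 145, 133 to 151, 0 to 190 and 51 to 112 below 0. It gave 0 to 18 tissue calls with BAF-1 and 0 to 13 with BAF-1(G12T). Without the filter, hyp BAF-1(G12T) had 1 bound and 8 below 0, int BAF-1 had 8 bound, int BAF-1(G12T) had 20 below 0, the tissue calls with BAF-1(G12T) were 2, and arm minus center in hyp BAF-1 was 1.33. With the 2 kb bin at the midpoint, arm minus center in hyp BAF-1 was 1.58 and 32 bins were bound in int BAF-1. The difference from coding neighbors moved to -0.92, -0.64 and -0.58 within 50 kb in hyp BAF-1, int BAF-1 and int BAF-1(G12T), to -0.022, -0.077, 0.054 and -0.097 in the 4 groups against coding genes with overlapping windows, and to -0.086 and -0.23 in the intestine for members outside coding genes. The deposited centring moved the median difference of all genes by -0.30 (hypodermis) and 0.50 (intestine) between proteins and by -0.84 (BAF-1) and -0.023 (BAF-1(G12T)) between tissues. With it, the tissue calls with BAF-1 were 25, the median tissue difference with BAF-1 was -0.77 and the median protein difference in the hypodermis was -0.33. With the replicate block, which the replicate correlations do not call for between tissues, tissue calls stayed at 12 with BAF-1 and fell to 6 with BAF-1(G12T), and the block changed no call between the proteins. For single named genes, 149 of the calls under an alternative were lost and 15 were gained, none with a reversed sign. The cause of these changes was not tested.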
